A study of Danio rerio with 3 samples.

Results

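The proteasome genes of the zebrafish embryo were taken as all genes whose symbol in the deposited tables starts with *psma*, *psmb*, *psmc*, *psmd*, *psme*, *psmf* or *psmg* followed by a digit, in upper or lower case. This name rule found 58 of 31950 genes, and 48 of the 58 averaged 10 counts or more across the 3 libraries. Among all genes, 18563 reached that average. The rule used no measured value. It also caught 1 gene that is named for its binding to a proteasome subunit but is not part of the particle, *psmc3ip*, a factor of meiotic recombination in mammals, which was kept in the counts and set apart as a class of its own.

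The proteasome is the particle that degrades proteins tagged with ubiquitin. Its 20S core is a barrel of alpha and beta rings, with the active sites on the inner face of the beta subunits PSMB5, PSMB6 and PSMB7. The 19S regulatory particle caps the barrel, binds ubiquitin and unfolds the substrate with a ring of ATPases, while the PA28 and PA200 activators bind the same ends of the core and PSMF1 inhibits it in the test tube. Keap1, the protein targeted in the study, is the adaptor of a ubiquitin ligase that sends the transcription factor Nrf2 to the proteasome, and in mammals Nrf1 and, for some of the genes, Nrf2 are known to regulate transcription of proteasome genes. Transcripts of the constitutive subunits are usually regulated together, whereas the inducible beta subunits PSMB8, PSMB9 and PSMB10 belong to leukocytes and to cells exposed to interferon.

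The study sequenced polyadenylated RNA from whole zebrafish embryos, with 1 library in each of 3 groups named non-treated, HNE Z-REX and HDE Z-REX. The paper's supplement names the *Tg(lyz:TagRFP)* line for this sequencing, a reporter line with red fluorescent neutrophils. Embryos of all 3 groups, the non-treated one included, carried mRNA for Halo-TEV-Keap1 injected into the yolk sac at the start of cleavage. These data do not show in which tissues, or for how long, the fusion protein was present. In Z-REX, a photocaged precursor docks on the Halo domain, and light then frees the electrophile next to Keap1. The HNE precursor was given at 1 µM, embryos spent 30 h in the dark, 365 nm light of 0.5 mW per cm2 was applied for 3 min, and RNA was taken 1.5 h later. HNE (hydroxynonenal) and HDE (hydroxydodecenal) are lipid-derived enals of which HDE has the longer carbon chain. A dose of the HDE precursor was not given in the sources used here, nor was the number of embryos behind a library, and the labels attach the same treatment text to the non-treated embryos. The paper treats light alone and precursor alone as controls of their own, and neither had a library here. Ratios against non-treated embryos therefore do not separate the enal from light and precursor. The labels number the Keap protein of the construct differently in each library, which the protocols do not repeat.

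The libraries held 17996107 counts for non-treated embryos, 17704406 for HNE Z-REX and 15084289 for HDE Z-REX. Proteasome genes accounted for 0.552% of counts from non-treated embryos, 0.525% of those after HNE and 0.558% of those after HDE. They are deeply covered, with a median of 2060 counts over the 48 genes against 201 over all genes that averaged 10 or more, and 36 of them averaged 1000 counts or more, which are called deep below. Ratios below are of counts scaled between libraries by the TMM method, each with an exact 95% Clopper-Pearson interval. With 1 library in a group there is no replicate check, and these intervals cover counting error only, not the spread between embryos. "At least 1.2-fold" is therefore a rule of size and not a test.

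By class medians, core particle genes were the most abundant. On the FPKM scale, which corrects for transcript length, the 14 constitutive 20S subunits, with copies of a subunit added together, had medians of 215.5 in non-treated embryos, 205 with HNE and 208 with HDE. Within the non-treated library they spread by 2.48-fold, from 137 FPKM for *psma2* to 339 for *psmb7*. The name rule found no *psma7*. The gene listed as *psma8*, with 3953, 3781 and 3492 counts in non-treated, HNE and HDE embryos, was counted among the 14. The 16 subunits of the 19S particle that were measured sat lower, with medians of 126, 117 and 129 FPKM in the same order of libraries. Their spread was wider, 5.61-fold in the non-treated library, from 67.9 FPKM for *psmd12* to 381 for *psmc4*. In the HNE and HDE libraries it was 3.98-fold and 3.89-fold, against 2.12-fold and 2.33-fold for the 20S subunits. The wider 19S spread rests largely on *psmc4*, whose FPKM and count ratios differ, as given below. The next highest 19S subunit, *psmd13*, had 174, 149 and 165 FPKM in the same order of libraries. Assembly chaperones, which help to build the particle without staying in it, had medians of 27.2, 28.1 and 26.9 FPKM. Activators and the inhibitor had medians of 6.98, 5.27 and 7.75 FPKM.

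**Figure D1:**
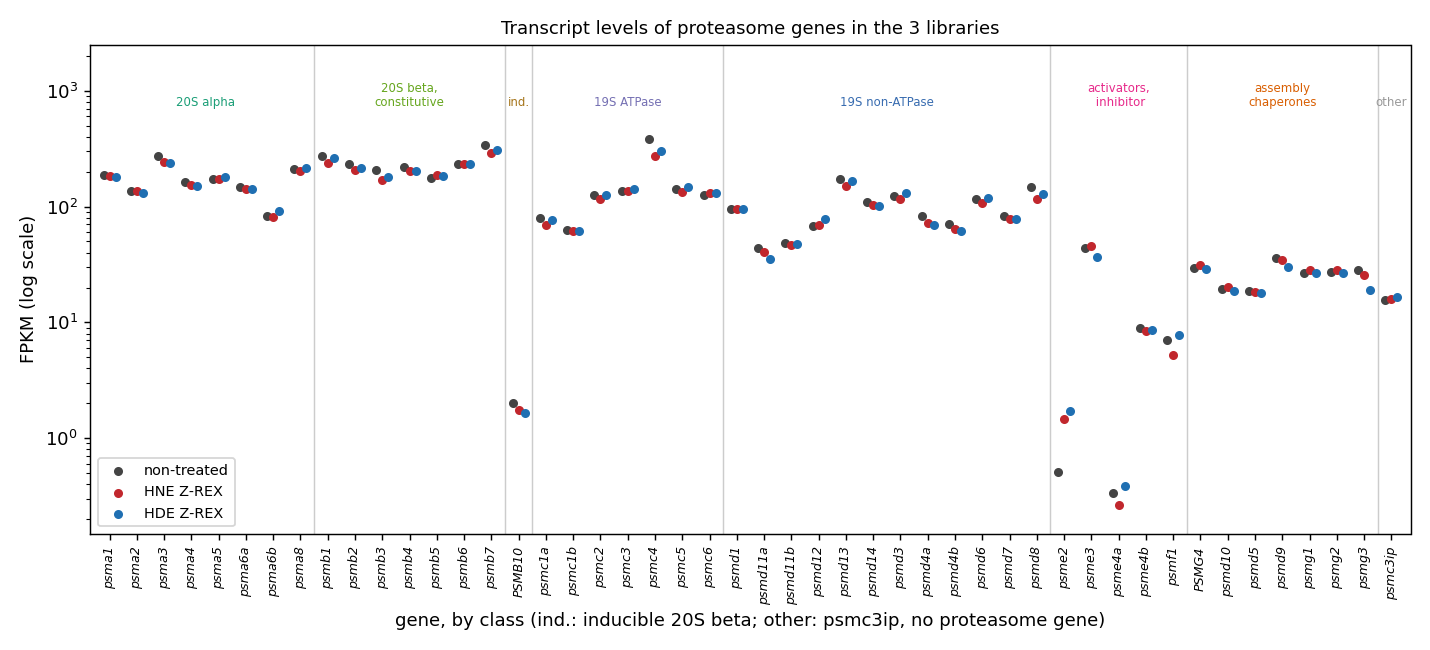
Level of each of the 48 proteasome genes that averaged 10 counts or more, in FPKM on a log scale, with 1 point per library (grey non-treated, red HNE Z-REX, blue HDE Z-REX) and genes grouped by class. In all 3 libraries the constitutive 20S and the 19S subunits lie above 30 FPKM, whereas the inducible 20S gene *PSMB10* and *psme2*, *psme4a*, *psme4b* and *psmf1* lie below 10.

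Of the 10 genes below the minimum, 5 encode inducible or tissue-specific beta subunits, a class of 6. *psmb8* (ENSDARG00000001303) had 1 count in the non-treated library and 0 in the other libraries. *psmb9a* (ENSDARG00000000656) had 3, 4 and 3 counts in non-treated, HNE and HDE embryos. The gene listed as *psmb10* (ENSDARG00000001656), which the gene name table calls *psmb13a*, had 0, 0 and 1. The gene listed as *psmb11* (ENSDARG00000031885), which that table calls *psmb12*, had 2 counts in every library. *psmb11b* (ENSDARG00000068086), named for a subunit that is specific to the thymus in mammals, had 2, 0 and 3 counts. *psma6l*, a relative of the *psma6* genes, had 1, 4 and 1 counts. The gene of the PA28 alpha chain, *psme1*, had 7, 10 and 6. No fold is given for any of these genes.

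The 3 remaining genes below the minimum belong to the 19S particle. Both IDs listed for *psmd2*, the gene of a large scaffold subunit that all eukaryotic cells use, are listed at 0 counts and 0 FPKM in every library. Such a 0 can be a failed estimate of the counting, so no statement is made on *psmd2* transcripts. The second of the IDs named *psmd4a* (ENSDARG00000104952) held less than 1 count in each library, and the first (ENSDARG00000101295) carried the reads of the gene.

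At each catalytic site the constitutive subunit made up nearly all of the transcript. For the site of chymotrypsin-like cleavage, *psmb5* had 3570 counts and its inducible partner *psmb8* had 1 in the non-treated library, which is 0.0302% of the summed FPKM. For the caspase-like site, *psmb6* had 2257, 2316 and 2165 counts in non-treated, HNE and HDE embryos, and *psmb9a* supplied 0.0735%, 0.1% and 0.0835% of the FPKM of the pair. The trypsin-like site is served by *psmb7*, with 4360, 3959 and 3712 counts, and by *PSMB10* (ENSDARG00000043781), with 29, 25 and 21. *PSMB10* supplied 0.588%, 0.600% and 0.537% of that pair. It was the single inducible gene above the minimum, and its ratios of 0.87 after HNE (95% interval 0.489 to 1.54) and 0.826 after HDE (0.448 to 1.50) had intervals that included 1. Differences of the inducible subunits between libraries were not detectable at this depth.

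Leukocytes are a usual source of the inducible subunits, so a list of 12 leukocyte markers was read beside them. The list holds *lyz*, *mpx*, *coro1a* and *mpeg1.1*, which the paper already reported as lower after HNE from these same libraries. Their part in the counts below is therefore not an independent observation. In the HNE library 12 of 12 markers were at least 1.2-fold lower than in the non-treated library, against 14.8% of all genes, with a median log2 ratio of -1.04. For the sparsest markers, *ncf1*, *ptprc*, *LAPTM5* and *plek*, the interval included 1. The summed level of the 12 markers was 97.5 normalized CPM in non-treated embryos, 48.1 after HNE and 87.8 after HDE. There, 3 of 12 were at least 1.2-fold lower, against 16.3% of all genes, and 1, *ncf1*, was higher at 1.9 (1.15 to 3.19), against 20%. Those at least 1.2-fold lower after HDE, *cybb*, *fcer1gl* and *plek*, had intervals that included 1. *lyz* fell short of 1.2-fold after HDE, but its interval lay below 1, at 0.855 (0.755 to 0.969). These backgrounds cover genes of all depths and were not matched to the depth of the markers. No marker was at 0 in the HNE library, the sparsest being *plek* with 11 counts. In whole-embryo RNA, fewer leukocytes and less RNA per leukocyte cannot be told apart. By live imaging the paper reports fewer neutrophils and macrophages after HNE Z-REX, counted at later times than this RNA was taken. It also reports lower *lyz*, *mpeg1.1* and *coro1a* by qRT-PCR, with light alone and precursor alone as controls. The paper attributes most of the loss of immune transcripts to fewer cells. The part of the marker difference in the proteasome ratios was not tested.

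After HNE, subunit transcripts were slightly lower in nearly every case. Of the 34 constitutive 20S and 19S genes, 31 had a ratio below 1 and 3 above, with a median log2 ratio of -0.10, and the ratios ran from 0.829 to 1.06. Of all 2860 deep genes, 1465 were below 1, with a median log2 ratio of -0.004. Summed over the 34 genes, the HNE library had 0.941 times the normalized counts of the non-treated library (0.932 to 0.949). Summed over all deep genes, it had 0.991 times. The count of lower genes stayed between 29 and 31 of 34 under the other scalings and in FPKM. These differences are small, and the spread between pools of embryos, against which they would have to be read, was not measured.

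By size alone, few proteasome genes stood out after HNE. At least 1.2-fold higher was 1 of 48, against 16.2% of all genes, and at least 1.2-fold lower were 3 of 48, against 14.8%. At 1.5-fold in either direction it was 1 of 48, against 9.54%. These backgrounds include many sparse genes, so the 36 deep proteasome genes were also read against the 2860 deep genes. There, 0 of 36 were at least 1.2-fold higher (background 3.39%) and 1 of 36, *psmb3*, at least 1.2-fold lower (4.48%). The interval lay below 1 for 20 of 36, or 55.6%, against 26.6% of deep genes, and above 1 for 1 of 36, *psmb5*, against 24.3%. The share of deep proteasome genes with an interval below 1 was thus above the background, and the share past a fold was not.

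**Figure D2:**
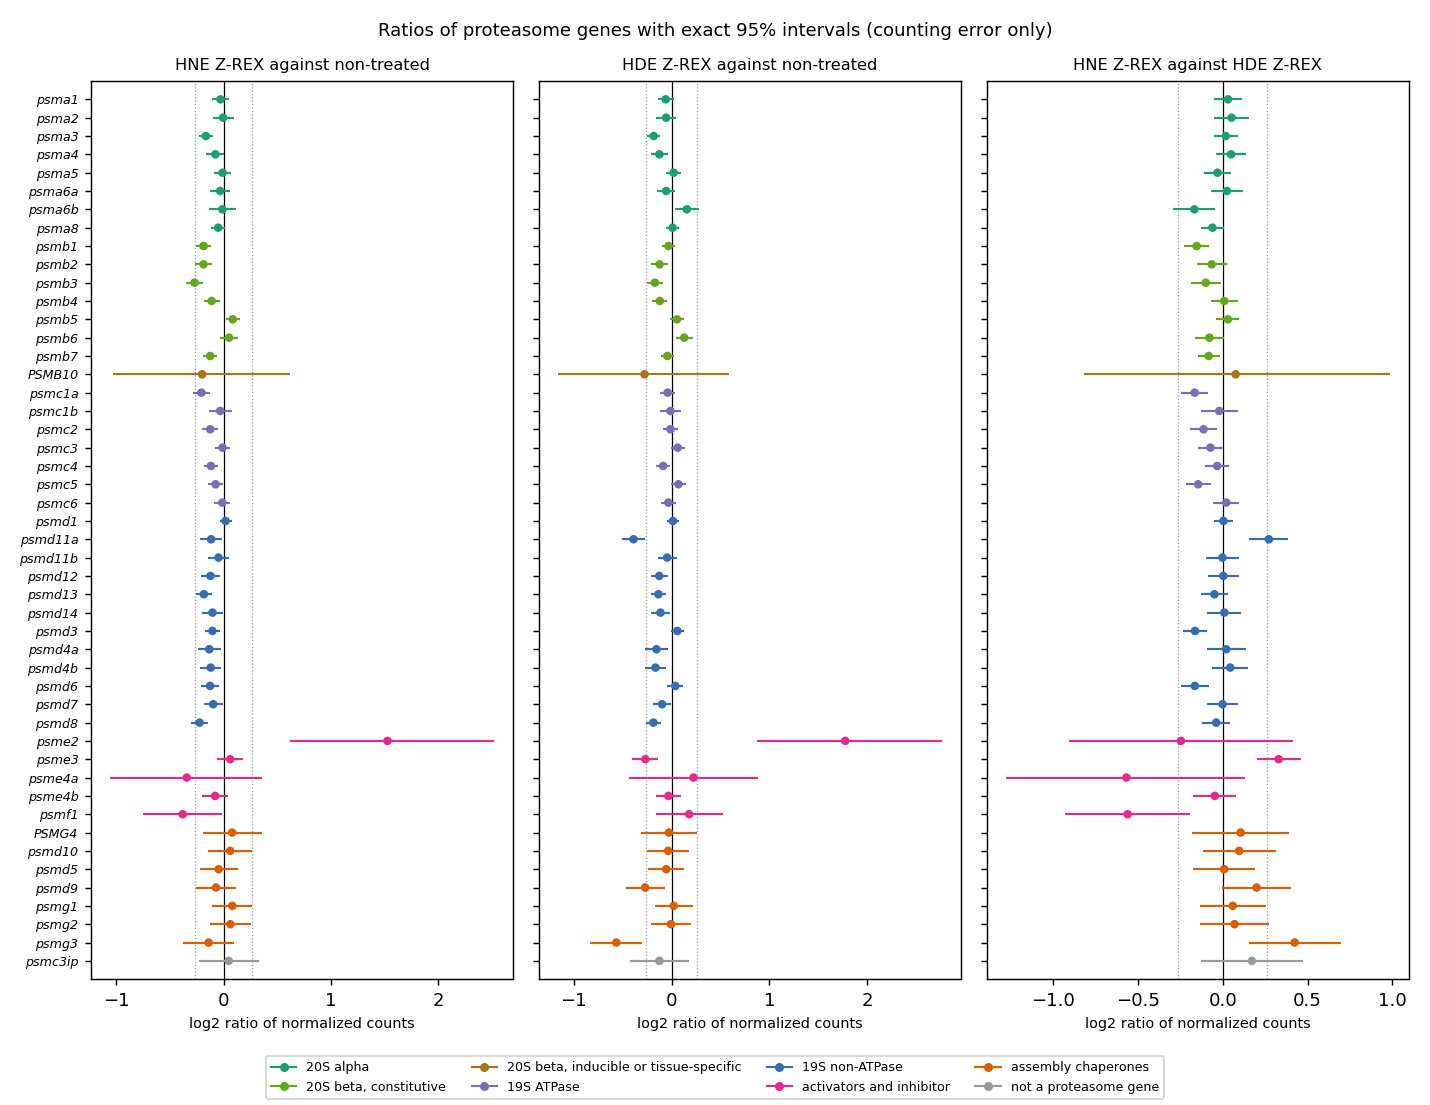
Log2 ratio of normalized counts (x axis) for each of 48 proteasome genes (y axis, coloured by class) in the 3 comparisons, with bars for the exact 95% interval of counting error and dotted lines at 1.2-fold. In the left panel most 20S and 19S genes lie just left of 0, between ratios of 0.829 and 1.06, and *psme2* lies far to the right of all others in the left and middle panels.

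Of the subunit classes, the alpha ring had the median ratio nearest to 1. All 8 genes with ratios were below 1 after HNE, but the median ratio was 0.979 and the interval excluded 1 for 1 of them. That gene was *psma3*, with 3901 non-treated, 3446 HNE and 3014 HDE counts, and a ratio of 0.892 (0.852 to 0.934). Next lowest was *psma4*, with 2355, 2213 and 1894 counts and a ratio of 0.949 (0.895 to 1.01). The highest ratios belonged to *psma2*, 0.997 (0.932 to 1.07) from 1714, 1693 and 1446 counts, and to *psma5*, 0.994 (0.943 to 1.05) from 2835, 2790 and 2523 counts. By library totals instead of TMM, 2 of these alpha ratios just under 1 moved above it.

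Among constitutive beta ring genes 5 of 7 were below 1 after HNE, each with an interval that excluded 1, and the median ratio was 0.917. Lowest after HNE was *psmb3*, a structural beta subunit, with 2626 counts in non-treated, 2156 in HNE and 2046 in HDE embryos. Its ratio of 0.829 (0.783 to 0.878) was the lowest among the 34 subunit genes. *psmb2*, also structural, followed with 2506, 2180 and 2019 counts and a ratio of 0.878 (0.829 to 0.931). The catalytic genes *psmb5* and *psmb6* had the highest ratios of the class, 1.06 (1.01 to 1.11) and 1.04 (0.977 to 1.1), whereas catalytic *psmb7* was at 0.917 (0.878 to 0.957). After HDE the catalytic genes *psmb5*, *psmb6* and *psmb7* were at 1.04 (0.991 to 1.09), 1.09 (1.03 to 1.16) and 0.971 (0.929 to 1.02). A few reads of *psmb5* are shared, since its deposited values of 3570, 3753.15 and 3254.17 complete those of the unnamed gene FP015916.2 to whole numbers. That partner took 2.85 counts after HNE and 16.8 after HDE, too few to set the ratio. In FPKM the HNE ratio of *psmb7* was lower than in counts, at -0.23 instead of -0.13 on the log2 scale. *psmb6* was above 1 in counts only: on the log2 scale it went from 0.05 to -0.03 after HNE and from 0.13 to -0.003 after HDE in FPKM.

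Within the ATPase ring, which pulls substrates into the core, all 7 genes were below 1 after HNE, with a median ratio of 0.95. The lowest were *psmc1a*, at 0.867 (0.822 to 0.914) from 2982, 2560 and 2543 counts in non-treated, HNE and HDE embryos, and *psmc2*, at 0.917 (0.87 to 0.967) from 2906, 2640 and 2528 counts. Highest were *psmc3*, at 0.993 (0.946 to 1.04) from 3377, 3322 and 3093 counts, and *psmc6*, at 0.991 (0.941 to 1.04) from 2936, 2883 and 2516 counts. *psmc4* shows how the unit matters: its count ratio was 0.921 (0.88 to 0.964), a log2 value of -0.12, but its FPKM of 381, 274 and 301 gave -0.48 after HNE and -0.34 after HDE. *psmc6* turned from -0.01 in counts to 0.08 in FPKM after HNE.

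Non-ATPase genes of the 19S particle hold its scaffold, ubiquitin receptors and deubiquitinase. After HNE, 11 of 12 were below 1, with a median ratio of 0.921, and the interval excluded 1 for 10. The lowest was *psmd8*, with 2901, 2460 and 2237 counts in non-treated, HNE and HDE embryos and a ratio of 0.856 (0.811 to 0.904), followed by *psmd13*, with 3047, 2657 and 2434 counts and a ratio of 0.88 (0.835 to 0.928). At the other end, the scaffold gene *psmd1* had 5198, 5215 and 4603 counts and a ratio of 1.01 (0.975 to 1.05). Next was *psmd11b*, with 1901, 1822 and 1615 counts and a ratio of 0.968 (0.907 to 1.03). *psmd14*, the gene of the deubiquitinase, lay in between with 1912, 1762 and 1550 counts and a ratio of 0.93 (0.872 to 0.993). In FPKM, *psmd8* was lower still at -0.36 on the log2 scale, and *psmd12* turned from -0.12 to 0.02.

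Assembly chaperone genes lay on both sides of 1. The 7 assembly chaperone genes had 4 ratios above 1 and 3 below after HNE, with a median of 1.04, and no interval excluded 1. Highest were *PSMG4*, with 216, 226 and 186 counts and a ratio of 1.06 (0.873 to 1.28), and *psmg1*, with 458, 480 and 408 counts and a ratio of 1.06 (0.929 to 1.21). Both take part in pairing the alpha subunits into a ring in mammals. Lowest were *psmg3* at 0.908 (0.771 to 1.07) and *psmd9* at 0.953 (0.838 to 1.08), whose counts are given with the HDE values. *psmg2*, with 433, 448 and 378 counts, and the 19S chaperone genes *psmd5*, with 540, 518 and 456, and *psmd10*, with 382, 395 and 327, lay between them. *psmc3ip*, the gene outside the particle, had 210, 215 and 169 counts and a ratio of 1.03 (0.851 to 1.26). Their counts are lower than those of the subunits, between 186 and 540 in every library, so a difference as small as that of the subunits could not be resolved gene by gene. Summed over the class, the ratio after HNE was 1.00 (0.951 to 1.06), above that of the 34 subunit genes. The intervals of these sums just miss each other. This contrast covers the 7 named genes only, since *pomp*, a gene of proteasome maturation, is left out by the name rule. *pomp* had 1685, 1490 and 1336 counts and ratios of 0.893 (0.832 to 0.958) after HNE and 0.905 (0.841 to 0.972) after HDE. By sums the order of the class and the 34 genes was reversed after HDE, with overlapping intervals. There the class was at 0.925 (0.875 to 0.977), with 6 of 7 genes below 1, and the 34 subunit genes at 0.968 (0.959 to 0.978). Summed over all deep genes, the ratio after HDE was 0.942, which lies between these values. By median log2 ratio the chaperone class stayed above the 34 genes after HDE, at -0.03 against -0.05. The lowest chaperone genes there were *psmg3* and *psmd9*. By library totals 5 of the 7 chaperone genes were above 1 after HDE.

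*psme2* was the one proteasome gene more than 1.5-fold apart between Z-REX and non-treated embryos. It encodes the beta chain of PA28, an activator that opens the core for peptides and is best known from antigen presentation in mammals. Non-treated embryos had 14 counts of *psme2*, HNE embryos 40 and HDE embryos 42. The non-treated library was low and both Z-REX libraries were high, with ratios of 2.88 (1.54 to 5.74) after HNE and 3.42 (1.83 to 6.79) after HDE. HNE and HDE were near each other, with a ratio of 0.843 (0.533 to 1.33). These counts are small, and both ratios rest on the same 14 reads. Its partner *psme1* had 7, 10 and 6 counts, too few for a ratio. With the edgeR exact test at an assumed biological coefficient of variation of 0.1, *psme2* passed for HDE and not for HNE. The gene does not reach the stricter minimum of 50 counts. For *psme2*, as for every ratio against non-treated embryos, the enal was not tested apart from light and precursor.

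**Figure D3:**
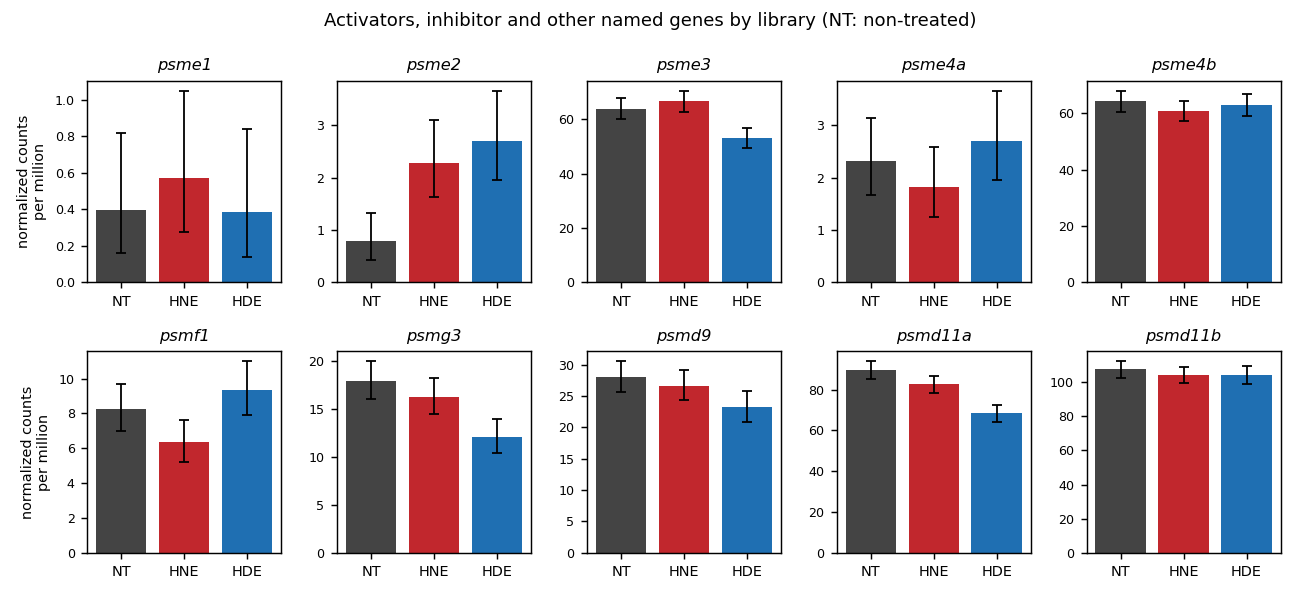
Normalized CPM (y axis from 0, scale differs by panel) of 10 named genes in the non-treated, HNE and HDE libraries, with bars for the exact 95% interval of counting error. *psme2* is high in both Z-REX libraries, *psmf1* is lowest after HNE, and *psme3*, *psmg3*, *psmd9* and *psmd11a* are lowest after HDE while *psmd11b* is nearly level.

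Other activators went their own ways. *psme3*, which encodes the nuclear PA28 gamma ring, had 1129, 1167 and 822 counts in non-treated, HNE and HDE embryos. The HDE library was the low one, with ratios of 0.831 (0.758 to 0.91) against non-treated and 1.04 (0.961 to 1.13) for HNE. *psmf1*, the gene of the inhibitor PI31, had 146, 111 and 145 counts. There the HNE library was low, at 0.768 (0.594 to 0.989) of non-treated, while HDE was at 1.13 (0.894 to 1.44). For the PA200 genes, *psme4b* had 1136, 1065 and 974 counts and *psme4a* 41, 32 and 42, so that *psme4a* made up 3.62%, 3.01% and 4.28% of their summed FPKM. The main copy *psme4b* was at 0.947 (0.87 to 1.03) after HNE and 0.978 (0.897 to 1.07) after HDE. The interval of *psme4a* after HNE, 0.48 to 1.28 around a ratio of 0.788, included 1 although the gene passed 1.2-fold.

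The comparison of HDE with non-treated embryos uses the same non-treated library, so its values are given beside the HNE ones and not as a second measurement. Of the 34 subunit genes, 24 were below 1, with a median log2 ratio of -0.05. Of the deep genes as a whole, 1752 of 2860 were below 1, also with a median log2 ratio of -0.05. The direction depends on the scaling, since scaling by library totals put 20 of the 34 genes above 1 and their median at 0.01, and moved the median of all genes from 0.01 to 0.07. At least 1.2-fold higher was 1 of 48 proteasome genes, *psme2*, against 20% of all genes, and at least 1.2-fold lower were 5 of 48, against 16.3%. At 1.5-fold in either direction it was again 1 of 48, against 10.5%.

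Among the 36 deep proteasome genes, the interval after HDE lay below 1 for 15, or 41.7%, against 41.3% of deep genes, a share at the background. It lay above 1 for 2, *psma6b* and *psmb6*, against 22%, and the value of *psmb6* was -0.003 in FPKM on the log2 scale. By fold, 0 of 36 were at least 1.2-fold higher (4.72%) and 2 of 36, *psmd11a* and *psme3*, at least 1.2-fold lower (11.3%). In FPKM and by library totals *psme3* fell short of 1.2-fold. *psmd11a* encodes a lid subunit that stabilizes the 26S particle, and was lowest of the subunit genes after HDE at 0.764 (0.706 to 0.827). Of the sparser genes at least 1.2-fold lower, *psmg3*, a partner in alpha ring assembly, had 317, 285 and 188 counts and a ratio of 0.677 (0.562 to 0.813). *psmd9*, a chaperone of the 19S base, had 495, 467 and 360 counts and a ratio of 0.83 (0.722 to 0.952). *PSMB10* was the fifth.

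**Figure D4:**
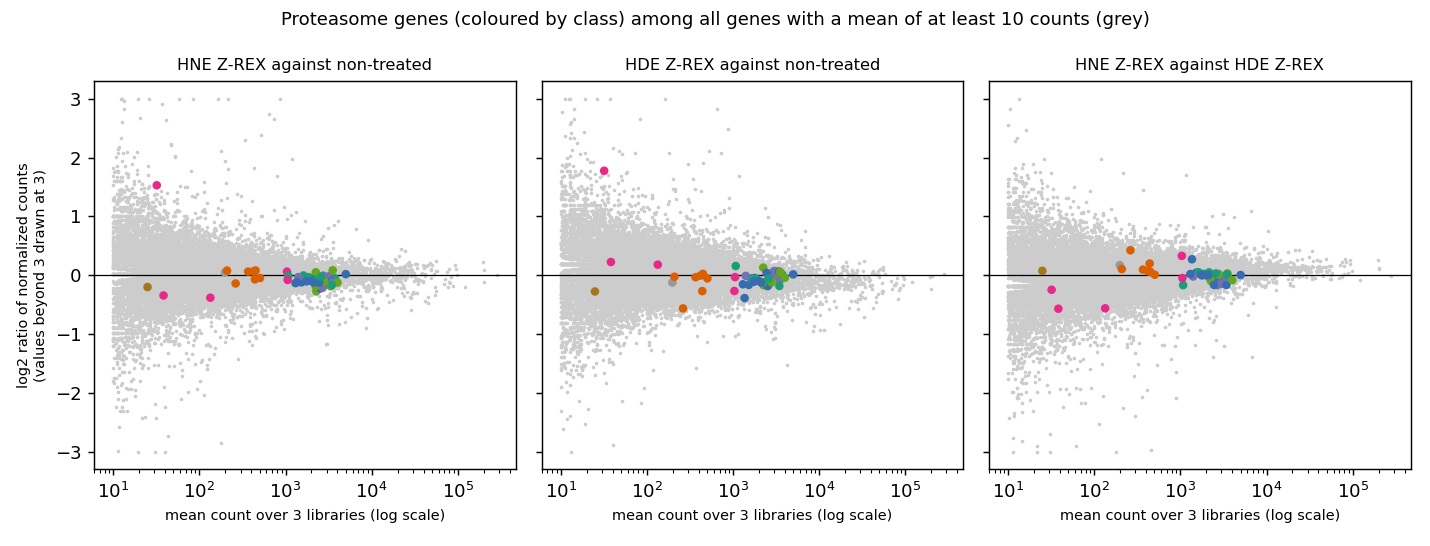
Log2 ratio of normalized counts (y axis, values beyond 3 drawn at 3) against mean count over the 3 libraries (x axis, log scale) for the 18563 genes that averaged 10 counts or more (grey) and the 48 proteasome genes (coloured by class). The 36 deep proteasome genes sit in the narrow part of the cloud, slightly below 0 in the left panel with a median of -0.10, and *psme2* stands apart at a low count.

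The direct comparison of HNE with HDE asked whether the enals, which differ in chain length, differ in these genes. At least 1.2-fold higher after HNE were 3 of 48, *psmd11a*, *psme3* and *psmg3*, against 15.3% of all genes. At least 1.2-fold lower were 2 of 48, *psme4a* and *psmf1*, against 17.3%, and 0 of 48 reached 1.5-fold, against 9.51%. *psmg3* had a ratio of 1.34 (1.11 to 1.62), *psme3* 1.26 (1.15 to 1.38) and *psmd11a* 1.21 (1.11 to 1.31). In FPKM and by library totals *psmd11a* fell short of 1.2-fold in this comparison. *psmf1* was at 0.677 (0.524 to 0.873). Over all 48 genes the median log2 ratio was 0.00, as it was over all genes.

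Read against deep genes, the subunits leaned to lower values after HNE than after HDE. The interval of the HNE to HDE ratio lay below 1 for 10 of 36 deep proteasome genes, or 27.8%, against 17% of deep genes, and above 1 for 2, against 38.9%. By fold, 2 of 36 were at least 1.2-fold higher (7.8%) and 0 of 36 at least 1.2-fold lower (3.5%). The 34 subunit genes had a median log2 ratio of -0.03, while the 2860 deep genes had 0.04. Summed, the 34 genes had a ratio of 0.971 (0.962 to 0.981), against 1.05 for all deep genes. Of the 34 genes, the number below 1 was 20 under TMM, 18 under DESeq2 size factors and 33 under library totals, so the count of lower genes cannot be separated from the scaling. The doses of the precursors could not be matched, as only that of HNE is given.

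Genome duplication left zebrafish with pairs of several proteasome genes, and reads of near-identical copies may be divided uncertainly between them. The copies named below had whole counts in every library, so no such division shows in these values. Whole counts cannot show that none took place. The second ID of *psmd4a*, with less than 1 count in each library, had fractional values. *psma6a* had 1989, 1927 and 1678 counts in non-treated, HNE and HDE embryos and *psma6b* had 1092, 1073 and 1067. The share of *psma6a* in their summed FPKM was 63.9%, 63.6% and 60.6%, and the summed pair stayed at 0.983 (0.935 to 1.03) after HNE and 1.02 (0.965 to 1.07) after HDE. After HNE *psma6a* was at 0.978 (0.918 to 1.04) and *psma6b* at 0.992 (0.911 to 1.08). After HDE *psma6b* was at 1.11 (1.02 to 1.21) and *psma6a* at 0.962 (0.901 to 1.03), with intervals that overlap.

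The lid pair differed after HDE by more than counting error. *psmd11a* had 1584, 1447 and 1061 counts and *psmd11b* had 1901, 1822 and 1615, and the share of *psmd11a* in their FPKM was 47.9%, 46.3% and 42.7%. After HNE *psmd11a* was at 0.922 (0.858 to 0.991). *psmd11b* itself had a ratio of 0.969 (0.906 to 1.04) after HDE, whereas the summed pair was at 0.876 (0.833 to 0.922).

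For the ATPase pair, *psmc1a* was at 0.867 after HNE while *psmc1b*, with 1487, 1441 and 1294 counts, was at 0.978 (0.909 to 1.05), and the sum was at 0.904 (0.866 to 0.943). The intervals of these copies overlap slightly. The ubiquitin receptor pair kept together, *psmd4a* with 1454, 1313 and 1146 counts at 0.912 (0.846 to 0.983) and *psmd4b* with 1700, 1549 and 1330 counts at 0.92 (0.858 to 0.986) after HNE. After HDE they were at 0.899 (0.831 to 0.972) and 0.893 (0.83 to 0.96), and *psmd4a* made up 54.3%, 52.7% and 52.7% of their FPKM.

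Genes of the same machinery that the name rule leaves out were read as lists. Of the 10 further proteasome genes found, none was past 1.2-fold in any comparison, with a median log2 ratio of -0.03 after HNE and -0.04 after HDE. Their most abundant were *shfm1*, a lid subunit, with 2431, 2287 and 2121 counts, *adrm1*, a ubiquitin receptor, with 2034, 2080 and 1854, and *usp14*, a deubiquitinase, with 1886, 1908 and 1606. All genes had a median of 0.00 and 0.01 in these comparisons. At least 1.2-fold higher and lower were 16.2% and 14.8% of all genes after HNE and 20% and 16.3% after HDE. For HNE against HDE it was 15.3% and 17.3%. Among deep genes, as most of the 10 are, 3.39% and 4.48% passed after HNE and 4.72% and 11.3% after HDE. After HNE 5 of the 10 were above 1 and 5 below. Intervals lay below 1 for *pomp*, given above, and *zfand5a*, at 0.892 (0.817 to 0.973) after HNE and 0.904 (0.826 to 0.989) after HDE.

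Among genes of ubiquitin and its activation, *rps27a*, which encodes ubiquitin joined to a ribosomal protein, had 24657, 26199 and 21965 counts and the polyubiquitin gene *ubc* 14862, 12354 and 11668. *uba1*, the gene of the enzyme that activates ubiquitin, had 8825, 8792 and 7212. Of the 5 such genes read here, none passed 1.2-fold after HNE, where 16.2% of all genes were higher and 14.8% lower. After HDE 1 was lower, against 16.3% of all genes, and 0 higher, against 20%. The lower gene was the polyubiquitin gene *ubb* at 0.776 (0.738 to 0.815), whose deposited counts are partly fractional. *ubc* fell short of 1.2-fold, at 0.839 (0.819 to 0.86) after HNE and 0.896 (0.874 to 0.918) after HDE. *rps27a* was at 1.07 (1.05 to 1.09) after HNE.

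Among 15 shuttle and unfolding factors, 1 was at least 1.2-fold higher and 2 lower after HNE, where 16.2% and 14.8% of all genes were. After HDE 2 were higher and 2 lower, against 20% and 16.3% of all genes. These backgrounds cover genes of all depths, whereas many of the factors are deep. Among deep genes the shares higher and lower were 3.39% and 4.48% after HNE and 4.72% and 11.3% after HDE. The counts of factors lay below the shares of all genes but not below those of deep genes. The most abundant factor was *vcp*, the unfoldase that feeds the proteasome, with 11373, 11036 and 9842 counts. Its ratios were 0.98 (0.954 to 1.01) after HNE and 0.987 (0.961 to 1.01) after HDE. *ubqln4*, a shuttle, had 4661, 4309 and 3329 counts and ratios of 0.933 (0.895 to 0.973) and 0.815 (0.779 to 0.852). The shuttle *rad23b* had 3300, 3087 and 2800 counts. The gene higher in both was *sqstm1*, the autophagy receptor p62, with 463, 603 and 679 counts and ratios of 1.31 (1.16 to 1.49) after HNE and 1.67 (1.48 to 1.89) after HDE. The gene lower in both was *derl2*, of the channel that exports proteins from the endoplasmic reticulum, with 392, 319 and 246 counts and ratios of 0.822 (0.706 to 0.955) and 0.716 (0.608 to 0.842).

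The list of Nrf1 and its processing had 10 genes with ratios, of which 1 was at least 1.2-fold higher and 1 lower after HNE, against 16.2% and 14.8% of all genes, and 4 higher and 1 lower after HDE, against 20% and 16.3%. The higher gene after HNE was *mafgb*, at 1.51 (0.772 to 3.05), and those after HDE were *mafgb*, *maff*, *bach1a* and *bach1b*. These encode partners and competitors of Nrf factors at DNA, not Nrf1 or its processing enzymes. The most abundant were *ddi2*, the protease that cleaves Nrf1 in mammals, with 2063, 1960 and 1612 counts, *sel1l* with 1072, 1008 and 813 and *syvn1* with 793, 794 and 636, the last pair being parts of the ligase that retires proteins from the endoplasmic reticulum. *nfe2l1b*, a zebrafish gene of Nrf1, had 543, 592 and 387 counts, with ratios of 1.1 (0.978 to 1.24) after HNE and 0.813 (0.712 to 0.928) after HDE. *bach1a* and *bach1b*, repressors of Nrf2 target genes in mammals, were at 1.77 (1.39 to 2.25) and 1.58 (1.31 to 1.91) after HDE, and at 0.781 (0.586 to 1.04) and 1.01 (0.824 to 1.24) after HNE.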

How the data were processed

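RNA of whole embryos was sequenced from 3 libraries, 1 per group. Per the labels and the paper's methods, the authors trimmed reads with cutadapt 1.8, mapped them to GRCz10 with TopHat2 2.1 and derived FPKM with Cufflinks 2.2. The deposited counts are estimated counts: 939 genes have fractional values, so some reads were divided between genes. The counting tool is not given in the sources used here, and the values are not scaled between libraries. The deposited FPKM values were made by the authors per transcript length and library.

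Counts were rounded to whole numbers and scaled with TMM factors (edgeR 4.0.16, R 4.3.3) from the 18563 genes averaging 10 counts or more. Ratios have exact 95% Clopper-Pearson intervals (scipy 1.17.1) for counting error only. No p-values are given, since each group had 1 library. The size rule was 1.2-fold, also 1.5-fold, beside the percentage of all genes that passed. All 3 comparisons share libraries.

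Every proteasome gene could be named. Given in full were the 2 highest and 2 lowest HNE ratios of a class, the catalytic and inducible beta genes and the letter-suffixed copies, and for other lists the 3 most abundant genes. *sqstm1*, *ubb*, *pomp*, *zfand5a*, *nfe2l1b*, *bach1a*, *bach1b*, *mafgb*, *maff*, *derl2*, *ncf1*, *plek*, *ptprc*, *LAPTM5*, *cybb*, *fcer1gl*, FP015916.2, *psmd9*, *psmg3* as HDE results and *psmc3ip* were named after their values were seen. The genes and lists were chosen with earlier results of these data known. Alternatives were DESeq2 1.42.0 size factors, library totals, FPKM with pseudocounts of 0.1 and 1, minimum means of 50 and 1 counts, a pseudocount of 1 on the counts and an edgeR exact test with an assumed variation of 0.1. Chosen after seeing the data were the minimum of 1000 counts, TMM factors from all genes, and leaving out *psmc3ip* or fractional genes. Ratio scripts were tested on simulated data. Figures were drawn with matplotlib 3.10.9. Of the 58 gene IDs, 56 matched the gene name table. 1 gene of the ubiquitin list is not reported here. No sequences or coordinates are given, since no genome of the files' build was used.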

Additional observations from a re-analysis of the deposited data

How the results depend on the processing

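No paired analysis was possible because each group has 1 library. For the same reason no library could be left out. The median log2 ratio of the proteasome genes after HNE kept its sign under every alternative and moved beyond the counting interval of the summed genes only with a minimum of 1000 counts, to -0.101 from -0.0776. After HDE it moved from -0.0435 to -0.0570 with DESeq2 size factors and turned to 0.0210 by library totals. For HNE against HDE it moved from 0.00066 to -0.0541 by library totals, -0.0153 and -0.0151 in FPKM with pseudocounts of 0.1 and 1, and -0.0262 with a minimum of 1000 counts. DESeq2 size factors, a pseudocount on the counts and TMM factors from all genes kept every count of genes past 1.2-fold within 1.5 times. Genes at least 1.2-fold higher after HNE numbered 1, but 0 with a minimum mean of 50 or 1000 counts or by the edgeR exact test, 2 by intervals above 1, and 4 with no filter. After HDE they numbered 1, but 0 with a minimum of 50 or 1000 counts, 2 by library totals or with no filter, and 3 by intervals. For HNE against HDE they numbered 3, but 0 at 1.5-fold or by the edgeR exact test and 5 with no filter. Genes lower by the edgeR exact test numbered 0 in every comparison, and by intervals 21, 17 and 11. By library totals 2 genes, *psmd11a* and *psmg3*, were at least 1.2-fold lower after HDE, not 5. Single ratios moved beyond counting error in 15 and 14 of 144 cases in FPKM and in 2 of 144 by library totals. The causes were not tested, except that stricter minimums leave fewer genes. The depth cannot resolve a 1.2-fold difference in genes with few counts, such as *psme2* and the inducible subunits.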
